A study of Mus musculus with 6 samples.

Results

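The translation initiation factor genes are the protein-coding genes of the mouse whose symbols begin with Eif1 to Eif6, without the eIF2 kinases (Eif2ak genes). The symbols chose 51 genes of the 24376 Ensembl gene IDs in the deposited tables. RNA was measured by sequencing of polyadenylated RNA in 6 libraries of blood progenitors, which were enriched from the livers of C57BL/6 embryos at E14.5. Directly after isolation the cells were infected with a retrovirus that carried either an shRNA against Samd14 (shSamd14, 3 libraries) or a control shRNA (3 libraries). After 3 days of culture, 200000 cells without CD71 and Ter119, surface proteins of maturing red cells, were sorted for each library. An shRNA is a short hairpin that the cell turns into a small RNA against matching transcripts. All 6 libraries share strain, embryonic stage, infection, culture and sort, and 1 shRNA against Samd14 is named. Its sequence and the target of the control shRNA were not part of the labels used here. The labels do not say that libraries of a group came from separate embryos or cultures, so the p-values measure the spread between these libraries, which may be technical.

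Initiation factors bring the ribosome to the start codon of an mRNA. eIF2 carries the initiator tRNA to the small ribosomal subunit and is recharged with GTP by eIF2B, eIF1 and eIF1A help to select the start codon, eIF3 holds the complex together, and eIF4E, eIF4G and eIF4A bind the cap and unwind the 5′ end. eIF5 triggers the GTPase of eIF2 and eIF5B then joins the large subunit. In red cell precursors initiation is known to be tied to heme supply through a kinase that phosphorylates eIF2.

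Samd14 itself (chr11:95009879-95026087, plus strand, GRCm38) had 41.9, 38.8 and 39.4 CPM (counts per 1000000 counts, scaled for library composition) in the shSamd14 libraries, against 82.0, 82.1 and 83.8 CPM in control libraries. Its fold change was 0.484 (log2 -1.05, SE 0.06), so each library matched its label. Library totals were 23862151 to 26462797 estimated counts with shSamd14 and 20584169 to 24069711 with the control shRNA. Of 12670 genes with enough counts, 327 (2.58%) differed between the groups at an adjusted p under 0.05 by edgeR's quasi-likelihood test, the threshold for a changed gene here. Of these, 167 (1.32%) were higher and 160 (1.26%) were lower with shSamd14; limma on log2(TPM + 1) gave 106 higher and 62 lower. TPM, the deposited level per transcript length and library, is used here for levels, and CPM for differences between groups. The summed TPM of 9 markers of red cell maturation was 4903 to 6229 with shSamd14 and 2907 to 4702 in controls (0 of 9 changed), that of 7 megakaryocyte markers 360 to 401 with shSamd14 and 271 to 290 in controls (2 of 7 changed, Pf4 and Gp5), and neither list overlapped between the groups. Hepatocyte markers were near 0, with albumin at 1.38 TPM or less in each library, except for Apoa1 at 32.6 to 43.2 TPM with shSamd14 and 39.2 to 80.2 TPM in controls, and 5 macrophage markers summed to 12.9 to 18 TPM with shSamd14 and 13.7 to 20.2 TPM in controls. Of these, Cd68 (10.3 to 14.9 TPM with shSamd14, 11.48 to 17.02 TPM in controls) made up most, and C1qa was at 0 in all 6 libraries. Neutrophil and monocyte markers (6 genes) summed to 1746 to 2864 TPM with shSamd14 and 1634 to 2563 TPM in controls. Mpo made up most of this, and 0 of 5 tested genes changed. Of 7 progenitor markers (438 to 484 TPM with shSamd14, 452 to 538 TPM in controls) 0 changed. Kit (log2 -0.33) and Flt3 (log2 -0.28) were lower and Gata2 (log2 0.25) was higher with shSamd14, without overlap between the groups in CPM. Cd34, Myb, Ptprc and Runx1 overlapped. Of all tested genes, 20.7% did not overlap between the groups.

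Expression of the initiation factor genes differed little between the groups. Of the 51 genes, 50 had enough counts to be tested. Of these, 1 rose with shSamd14, Eif5b, the GTPase that joins the ribosomal subunits, by 1.199-fold. None fell at the threshold. Over all tested genes 1.32% rose and 1.26% fell, so 1 of 50 was close to the share over all genes. Eif5a2, the minor gene of the elongation and initiation factor eIF5A, had a lower level with shSamd14 (0.813-fold) that missed the threshold at an adjusted p of 0.0644. The sites printed here lie in the 3′ untranslated regions (3′ UTRs) of Eif5b and Eif5a2. They are shown because they hold 7-base words that an earlier search of the same data had linked to the direction of change of all genes, CTGATTA or TGATTAA with higher and CAAGTGT or AAGTGTA with lower values, so that their presence here is a description and no support for that search. The words were searched on the transcript strand, each pair overlaps in all but its end base, and the capitals mark the matches. Positions are on GRCm38, plus strand, from the GENCODE M21 annotation.
Eif5b, chr1:38051979-38052008: tcaattttataCTGATTAAatcagtcctgc
Eif5b, chr1:38052004-38052033: cctgcagtattTGATTAAccaagcttctac
Eif5b, chr1:38053359-38053388: gacagtaaaacCAAGTGTtaagaaaataaa
Eif5a2, chr3:28795386-28795415: acacttttctaAAGTGTAataggtgtaacc
Eif5a2, chr3:28796389-28796418: aaataatatatAAGTGTAcatactccaaca

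The 3′ UTR of Eif5b (3866 bases) thus held words of both pairs and that of Eif5a2 (4391 bases) held AAGTGTA at 2 places. The printed sites come from genes with an unadjusted p under 0.05. Eif3j2 also had such a p, and its 3′ UTR (1537 bases) held CAAGTGT and AAGTGTA, but its sites were left out. CTGATTA or TGATTAA occurred in 6 of 50 tested initiation factor genes (12%), against 14.3% of 11546 genes that did not pass the threshold. The holders were Eif1a, Eif3e, Eif4ebp2, Eif4g1, Eif5 and Eif5b, of which 5 had a positive and 1 a negative log2 fold change (median 0.05), against 25 positive and 19 negative among the other genes (median 0.01). CAAGTGT or AAGTGTA occurred in 11 of 50 (22%), against 22.3% of those 11546 genes. These 11 holders, Eif5a2, Eif3j1, Eif3j2, Eif4a2, Eif1ax, Eif4e, Eif2b3 and Eif4e2 with negative and Eif5b, Eif4g1 and Eif4ebp1 with positive values, had a median log2 fold change of -0.06, against 0.03 for the other 39 genes (27 positive and 12 negative). Since the words were found by the direction of change in these same libraries, the signs of the holders are a description as well. The initiation factor genes therefore held either pair of words about as often as other genes, with a median 3′ UTR of 1364 bases against 1368.5 bases.

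Eif5b (ENSMUSG00000026083; chr1:37998010-38055579, plus strand) had 344.4, 352.2 and 328.6 CPM with shSamd14, against 284.0, 286.3 and 284.8 CPM in controls. The lowest shSamd14 library was above the highest control library. Its log2 fold change was 0.26 (SE 0.06, 95% interval 0.14 to 0.39, adjusted p = 0.0269). On the length-corrected scale it averaged 72.6 ± 2.13 TPM with shSamd14 and 60.1 ± 1.69 TPM in controls (SD, n = 3 each). The call was lost without most single libraries: without 1 library at a time the log2 fold change stayed between 0.24 and 0.29, but the adjusted p was 0.0765 to 0.138 without any of the 3 controls or shSamd14 replicate 1 or 2, and 0.0273 without shSamd14 replicate 3. Exons of Eif5b overlap 1643 bases of Rev1, a gene on the opposite strand whose log2 fold change was -0.08 (SE 0.06), and whether the counting used strand is not given in the sources used here.

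Eif5a2 (chr3:28781276-28798846, plus strand) had 20.04, 19.2 and 20.08 CPM with shSamd14, against 25.5, 24.2 and 23.3 CPM in controls. The groups did not overlap, and the log2 fold change was -0.30 (SE 0.08, 95% interval -0.47 to -0.13, unadjusted p = 0.00194). Eif3j2, which encodes a loosely bound subunit of eIF3, had 175.8, 181.1 and 159.0 CPM with shSamd14, against 196.3, 194.9 and 186.7 CPM in controls. Its groups did not overlap either, but the log2 fold change of -0.16 (SE 0.06) had an unadjusted p of 0.0207 and an adjusted p of 0.219. Of the 25-base windows of Eif3j2 transcripts, 95.1% also occur in its near copy Eif3j1, and 38.6% of the windows of Eif3j1 occur in Eif3j2, so how the estimated counts divide between these genes is uncertain. Eif3j1 had 59.8, 72.5 and 56.5 CPM with shSamd14 and 67.9, 68.3 and 68.1 CPM in controls, with overlapping groups. Eif5b, Eif5a2 and Eif3j2 were the 3 genes with an unadjusted p under 0.05, which is 6.0% of those tested, against 15% of all tested genes.

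**Figure D1:**
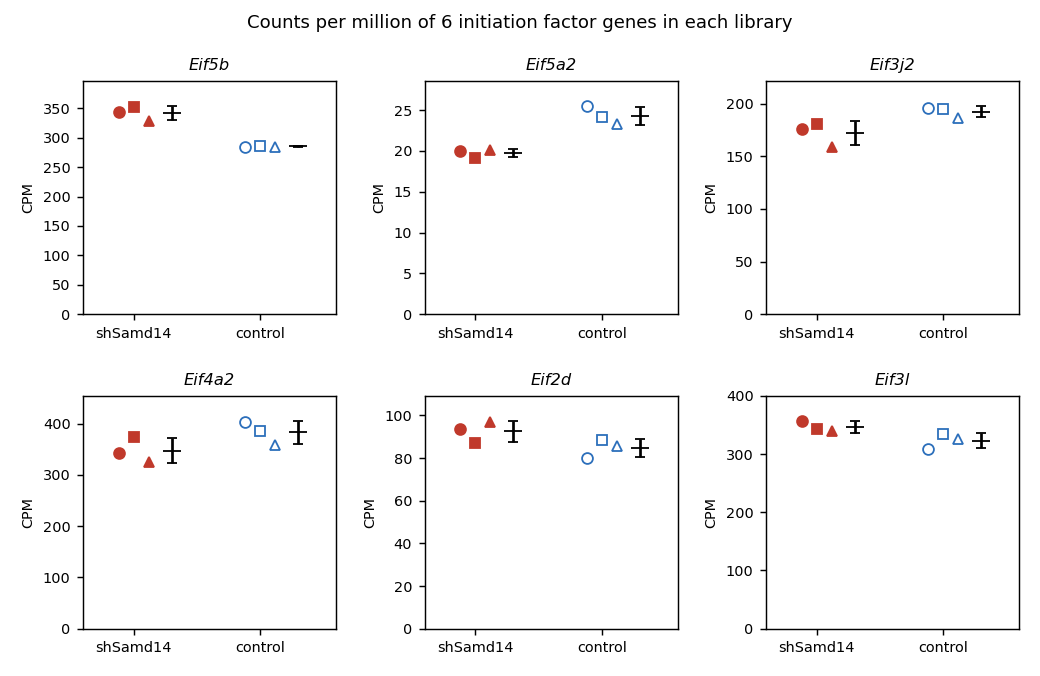
CPM of 6 initiation factor genes in each library, shSamd14 left (filled) and control right (open), with circles, squares and triangles for replicates 1, 2 and 3 and a black mark for the mean ± SD of 3 libraries. Eif5b was higher and Eif5a2 and Eif3j2 were lower in all 3 shSamd14 libraries than in any control library, whereas Eif4a2 and Eif2d overlapped.

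The log2 fold changes were small across the whole group. They were positive for 30 and negative for 20 genes, with a median of 0.02 (0.01 over all tested genes), and 39 of 50 were under 0.1 in size. The median size was 0.06, against 0.10 over all tested genes; among genes with a mean of at least 100 CPM, where counting error matters less, it was 0.05 for 38 initiation factor genes and 0.06 for all 2366. For 45 of 50 initiation factor genes the 95% interval lay between a 25% increase and a decrease of the same size on the log scale, which held for 6692 of 12670 tested genes. At a mean of at least 100 CPM it held for 37 of 38 initiation factor genes and for 2103 of all 2366 genes. The exceptions were Eif5b and Eif5a2 and 3 genes with wide intervals, Eif2s3y, Eif4e3 and Eif4ebp3. The shSamd14 and control values did not overlap for 6 genes (12%), 4 higher (Eif5b, Eif3l, Eif4ebp2 and Eif2b5) and 2 lower (Eif5a2 and Eif3j2), against 20.7% of all tested genes, 10.5% higher and 10.2% lower.

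**Figure D2:**
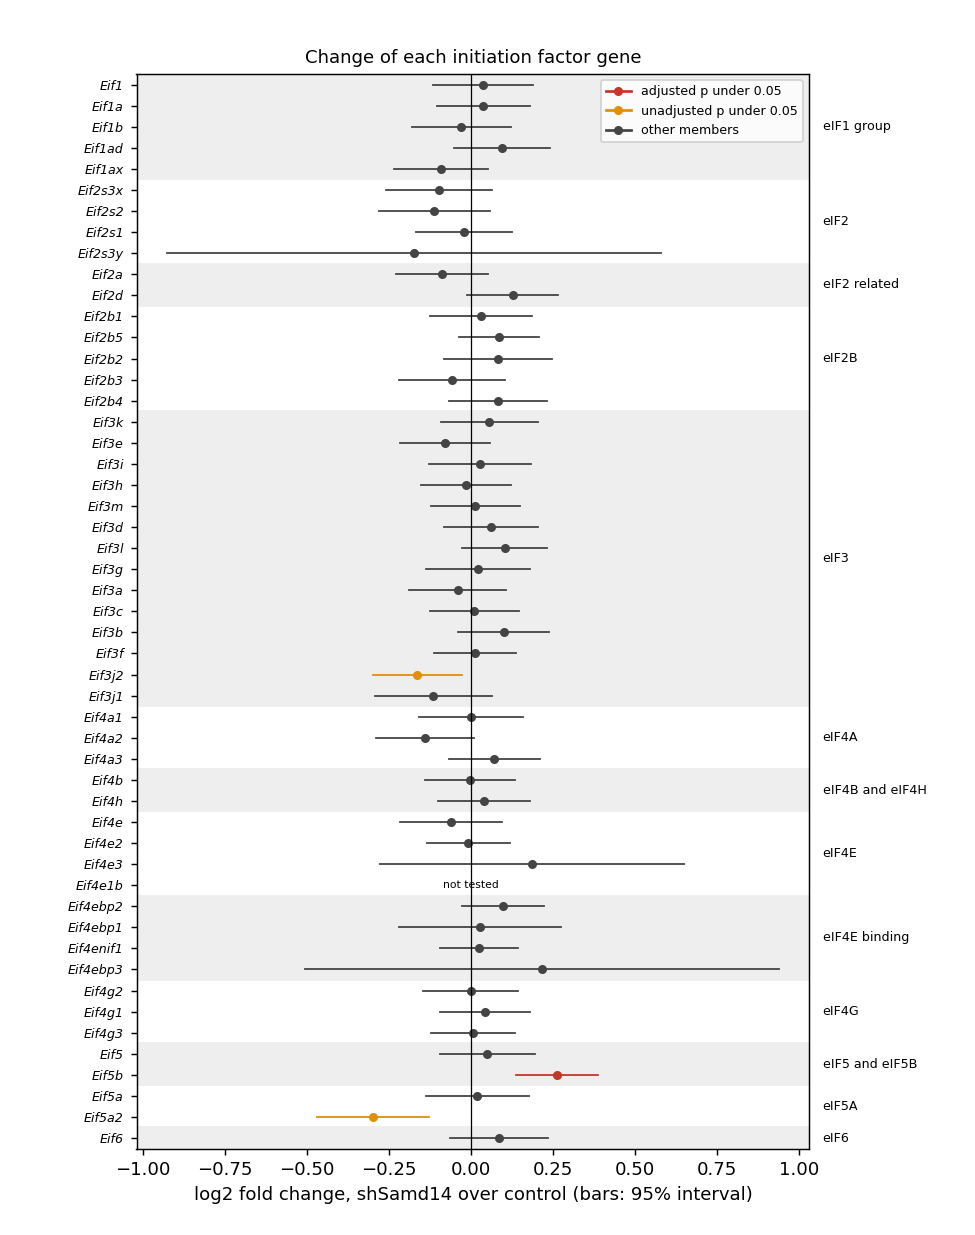
Log2 fold change of each initiation factor gene, shSamd14 over control, with its 95% interval, ordered by factor complex. Eif5b (red) lies to the right of 0 at 0.26, Eif5a2 and Eif3j2 (orange) lie to the left at -0.30 and -0.16, and 45 intervals lie between a 25% increase and the matching decrease.

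The levels of the factors spanned a wide range that both groups shared. Eif5a was highest, with 2162, 2131 and 2072 TPM in shSamd14 libraries and 2021, 2165 and 1999 TPM in controls, and the helicase gene Eif4a1 followed with 1521, 1525 and 1428 TPM in shSamd14 libraries and 1471, 1554 and 1417 TPM in controls. Next in order was Eif4g2, an eIF4G relative that does not bind the cap-binding protein, with 688, 740 and 702 TPM with shSamd14 and 726, 720 and 671 TPM in controls. The ranges of these 3 genes did not overlap in either group, whereas the next genes, Eif3k (565 ± 25.2 TPM with shSamd14, 539 ± 22.8 TPM in controls), Eif1 (558 ± 37.6 TPM with shSamd14, 541 ± 18.8 TPM in controls) and Eif3e (520 ± 22.5 TPM with shSamd14, 545 ± 9.43 TPM in controls), overlapped each other. Of the 51 genes, 34 had a mean of at least 100 TPM and 4 had a mean under 10 TPM. These 4 were Eif5a2 (6.59 ± 0.26 TPM with shSamd14, 8.06 ± 0.61 TPM in controls), Eif4e3 (2.91 ± 0.76 TPM with shSamd14, 2.51 ± 0.64 TPM in controls), Eif4ebp3 (2.93 ± 0.67 TPM with shSamd14, 2.48 ± 1.21 TPM in controls) and Eif4e1b, a relative of the cap-binding protein known from oocytes. Eif4e1b was not tested: it was at 0 in 5 libraries and at 0.03 TPM, under 1 estimated count, in shSamd14 replicate 2.

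**Figure D3:**
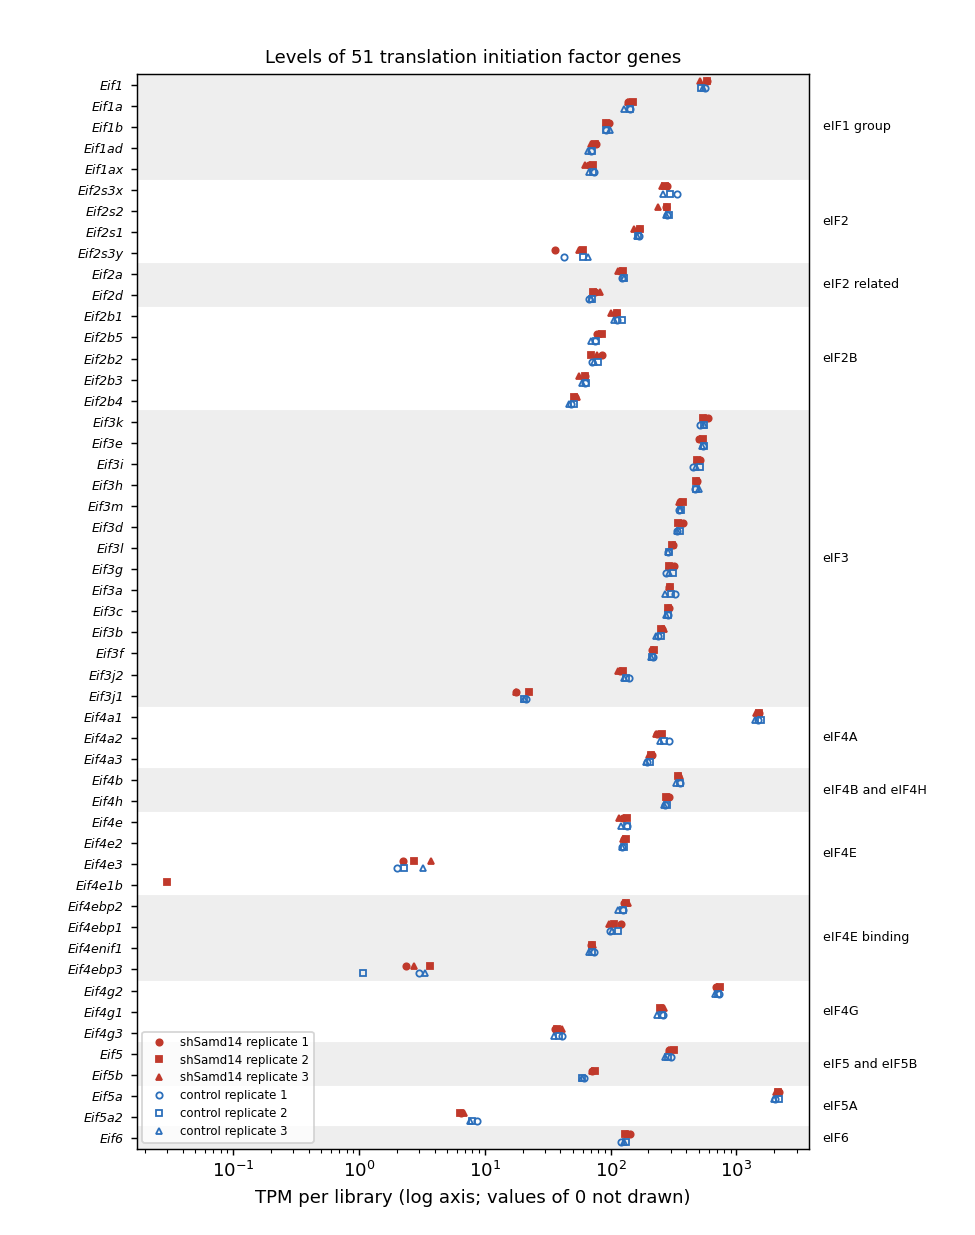
TPM of the 51 initiation factor genes in each library on a log axis, shSamd14 filled and control open, ordered by factor complex and level. The 6 points of most genes lie close together, and Eif2s3y, Eif4e3 and Eif4ebp3 have the widest spread; values of 0 are not drawn.

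Summed over the 51 genes, initiation factor RNA was 13772, 13790 and 13350 TPM with shSamd14, against 13473, 13838 and 13077 TPM in controls. That is 1.36% of all TPM with shSamd14 and 1.35% in controls, with overlapping groups. The summed TPM of each of the 13 complexes also overlapped between the groups. The ratio of shSamd14 to control was lowest for eIF2 (0.934) and highest for eIF5 with eIF5B (1.08). The other ratios lay between 0.997 for eIF4A and 1.06 for eIF6.

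**Figure D4:**
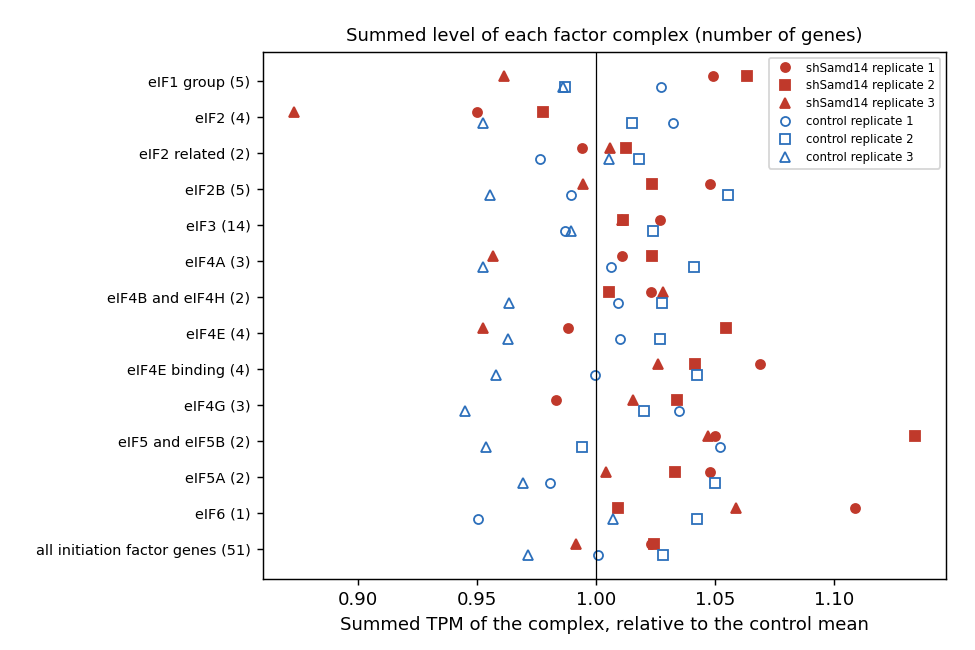
Summed TPM of each factor complex in each library, divided by the mean of the 3 control libraries; shSamd14 libraries are filled and control libraries open, and the number of genes is given in brackets. All shSamd14 values of eIF2 lie below the control mean and all of eIF5 with eIF5B above it, but the groups overlap in each row.

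Among the factors of the start codon and the initiator tRNA, Eif1 had 579, 581 and 515 TPM with shSamd14 and 560, 523 and 539 TPM in controls, and no gene of the eIF1 group passed the threshold. The largest change there was that of Eif1ad, whose product carries an eIF1A domain, with a log2 fold change of 0.09 (SE 0.07; 117, 110 and 99.1 CPM with shSamd14, 99.2, 107 and 98.7 CPM in controls). The autosomal Eif1a made up 67.3%, 67.8% and 68.6% of the summed TPM of Eif1a and X-linked Eif1ax with shSamd14, against 65.6%, 66.5% and 65.5% in controls. These shares did not overlap, although neither gene passed the threshold (log2 0.04 with SE 0.07 for Eif1a, -0.09 with SE 0.07 for Eif1ax). Shares were taken in the same way within other sets of related genes, without a test. They did not overlap for Eif4a1 with Eif4a2 and for Eif5a with Eif5a2. They overlapped within the Eif1, Eif2s3, Eif3j, Eif4e, Eif4ebp and Eif4g sets.

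All 4 genes of eIF2, which delivers the initiator tRNA, had negative log2 fold changes, with a median of -0.11, and none passed the threshold. Eif2s2, the beta subunit, had 398, 395 and 325 CPM with shSamd14 and 388, 424 and 397 CPM in controls (log2 -0.11, SE 0.08). Eif2s1, the alpha subunit that stress kinases phosphorylate, had a log2 fold change of -0.02 (SE 0.07). The gamma subunit has an X-linked gene, Eif2s3x, and a Y-linked one, Eif2s3y. Eif2s3x had 283, 271 and 255 TPM with shSamd14, against 336, 296 and 260 TPM in controls. Eif2s3y had 36.2, 60.9 and 55.9 TPM with shSamd14, against 42.3, 60.8 and 66.3 TPM in controls, and its SD within groups was 0.37 on the log2 scale (log2 fold change -0.17, SE 0.28). The library numbered 1 was the lowest of its group for Eif2s3y. It was also the lowest of its group for the Y-linked Ddx3y (14.54 TPM with shSamd14 and 19.9 TPM in the control), Uty (7.29 TPM with shSamd14 and 7.86 TPM in the control) and Kdm5d (4.91 TPM with shSamd14 and 7.02 TPM in the control), and the highest for the X-linked Xist, the RNA that silences the second X chromosome of females (124 TPM with shSamd14 and 174 TPM in the control, where the other 4 libraries had 87.4 to 96.1 TPM). Xist and the Y-linked genes thus differed in opposite directions in these libraries, and the sex of the embryos is not given in the labels. Without both libraries numbered 1, an alternative chosen after seeing these values, the log2 fold change of Eif5b was 0.25 and its adjusted p was 0.281; of all genes 42 then passed.

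**Figure D5:**
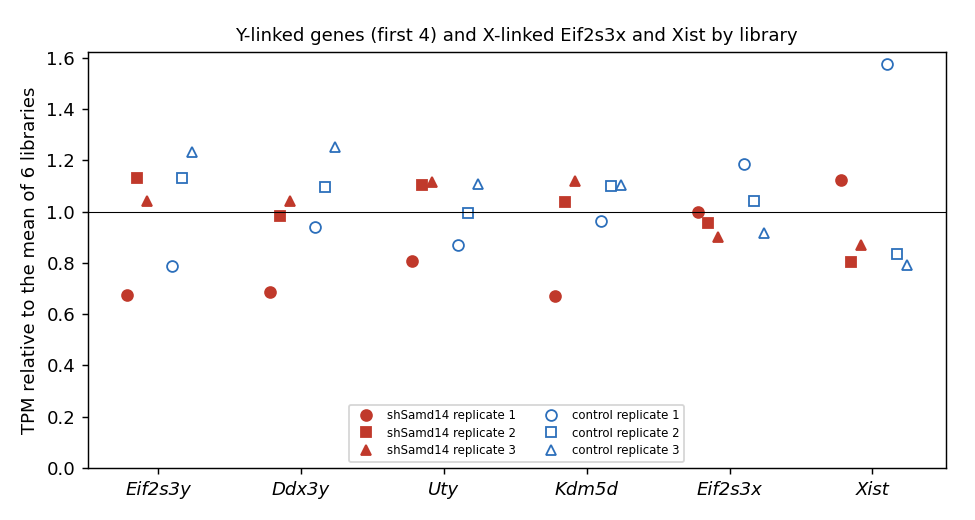
TPM of Y-linked Eif2s3y, Ddx3y, Uty and Kdm5d and of X-linked Eif2s3x and Xist in each library, divided by the mean of the 6 libraries; shSamd14 libraries are filled and control libraries open. Replicate 1 of each group (circles) is the lowest of its group for the 4 Y-linked genes and the highest for Xist and Eif2s3x.

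Of the proteins related to eIF2, Eif2d, a factor of ribosome recycling and of re-initiation, had 93.5, 87.13 and 97.03 CPM with shSamd14 and 80.0, 88.4 and 85.8 CPM in controls (log2 0.13, SE 0.06, adjusted p = 0.381), with overlapping groups. Eif2a, an initiator tRNA binding protein apart from the eIF2 trimer, had 119, 126 and 114 TPM with shSamd14 and 123, 128 and 127 TPM in controls. None of the 5 eIF2B genes passed, and 4 of 5 had positive values. Eif2b5, the catalytic subunit, had 138.5, 135.8 and 133.5 CPM with shSamd14 and 125.8, 133.4 and 125.3 CPM in controls, groups that lay side by side without overlap (log2 0.08, SE 0.06). Eif2b1, the highest of them, had 111, 113 and 101 TPM with shSamd14 and 112, 123 and 106 TPM in controls. Its log2 fold change of 0.03 (SE 0.07) on counts turned to -0.07 with the deposited effective lengths, which differ between libraries. With those lengths Eif2b5 had a log2 fold change of 0.14 (edgeR's quasi-likelihood test, unadjusted p = 0.046, adjusted p = 0.335).

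The 14 genes of eIF3 had a median log2 fold change of 0.01, 9 positive and 5 negative, and none passed the threshold. Eif3k was the highest with 589, 539 and 567 TPM with shSamd14 and 513, 552 and 552 TPM in controls, and Eif3j1 the lowest with 19.3 ± 2.59 TPM with shSamd14 and 20.8 ± 0.59 TPM in controls. Between them lay, per transcript length, Eif3a (293 ± 3.93 TPM with shSamd14, 299 ± 25.2 TPM in controls), Eif3b (259 ± 7.60 TPM with shSamd14, 240 ± 11.4 TPM in controls) and Eif3c (287 ± 3.70 TPM with shSamd14, 283 ± 5.31 TPM in controls), which form the core of the complex. Eif3l, a peripheral subunit that binds Eif3k, had 357.5, 343.3 and 339.1 CPM with shSamd14, against 309.2, 333.8 and 325.7 CPM in controls. All 3 shSamd14 libraries were above the controls, at log2 0.10 (SE 0.06, adjusted p = 0.472).

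Of the genes of cap recognition and unwinding, Eif4a2, the minor helicase gene, had 342.5, 373.1 and 325.5 CPM with shSamd14 and 403.6, 386.4 and 358.1 CPM in controls (log2 -0.14, SE 0.07, adjusted p = 0.368). Its groups overlapped in CPM, but its share of the summed TPM of Eif4a1 and Eif4a2 did not overlap, at 13.3%, 14.4% and 13.96% with shSamd14 and 16.5%, 14.6% and 14.9% in controls. Eif4a1 differed by less than its error (log2 -0.00061, SE 0.07), as did the helicase cofactors Eif4b (342, 346 and 354 TPM with shSamd14, 353, 354 and 329 TPM in controls) and Eif4h (290, 275 and 281 TPM with shSamd14, 270, 281 and 266 TPM in controls). The cap-binding protein gene Eif4e had 125, 136 and 116 TPM with shSamd14 and 134, 135 and 121 TPM in controls, and Eif4e2, which binds caps without recruiting eIF4G, was at a like level (129 ± 3.84 TPM with shSamd14, 125 ± 2.16 TPM in controls). Of the scaffold genes, Eif4g1 had 252, 249 and 265 TPM with shSamd14 and 261, 255 and 233 TPM in controls. Eif4g2 made up 70.7% ± 1.22 of the TPM of the 3 eIF4G genes with shSamd14 and 71.0% ± 0.38 in controls.

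The 4 genes of proteins that bind eIF4E had positive log2 fold changes, with a median of 0.06, and none passed the threshold. Eif4ebp2, a repressor that releases eIF4E when mTOR phosphorylates it, had 138.6, 137.8 and 139.6 CPM with shSamd14 and 128.5, 136.0 and 124.1 CPM in controls, without overlap (log2 0.10, SE 0.06, adjusted p = 0.473). Eif4ebp1, another such repressor, and Eif4enif1, a transporter of eIF4E, had log2 fold changes of 0.03 (SE 0.11) and 0.02 (SE 0.06).

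Of the factors of subunit joining other than Eif5b, Eif5, the activator of the eIF2 GTPase, had 293, 318 and 291 TPM with shSamd14 and 303, 286 and 272 TPM in controls (log2 0.05, SE 0.07). Eif6, which keeps large subunits from joining too early, had 142, 129 and 136 TPM with shSamd14 and 122, 134 and 129 TPM in controls (log2 0.08, SE 0.07). Both genes overlapped between the groups. Eif5a2 accounted for 0.30%, 0.30% and 0.33% of the summed TPM of Eif5a and Eif5a2 with shSamd14, against 0.43%, 0.36% and 0.38% in controls, so Eif5a made up nearly all eIF5A transcripts in each library.

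Of 44 tested genes that act on initiation from outside the factors, 1 fell with shSamd14 and 0 rose, and 5 (11.4%) had an unadjusted p under 0.05, against 2.58% of all tested genes that passed the threshold and 15% with an unadjusted p under 0.05. The 5 genes were Ddit4, Ddx3x, Deptor, Eif2ak1 and Eif2ak3. The gene that fell was Ddit4, an inhibitor of mTOR complex 1, with 112, 94.2 and 96.5 CPM with shSamd14, against 151, 118 and 144 CPM in controls. Its groups did not overlap (log2 -0.45, SE 0.10, adjusted p = 0.0408); without shSamd14 replicate 2 or 3, or control replicate 1 or 3, the adjusted p was 0.0952 to 0.138. Eif2ak1, the heme-regulated eIF2 kinase of red cell precursors, had 154, 158 and 161 CPM with shSamd14, against 146, 138 and 146 CPM in controls. That difference (log2 0.14, SE 0.06, unadjusted p = 0.032) had an adjusted p of 0.268. Deptor, another inhibitor of mTOR, and Eif2ak3, the eIF2 kinase of the endoplasmic reticulum, had positive values that missed the threshold too (log2 0.25 with SE 0.10, adjusted p = 0.261, and log2 0.20 with SE 0.09, adjusted p = 0.284). The helicase gene Ddx3x had 803, 821 and 735 CPM with shSamd14 and 881, 935 and 853 CPM in controls (log2 -0.18, SE 0.07, adjusted p = 0.231). Atf4, whose translation rises when eIF2 is phosphorylated, had 209 ± 21.9 CPM with shSamd14 and 214 ± 2.75 CPM in controls, and the smallest p among cap and poly(A) binding genes was that of Gigyf2 (log2 -0.12, SE 0.06, adjusted p = 0.345). The hypusine enzyme Dohh, which modifies eIF5A, had 39.4 ± 4.31 CPM with shSamd14 and 35.7 ± 4.31 CPM in controls, a difference smaller than the spread of either group.

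For 38 of 50 tested initiation factor genes the log2 fold change was smaller in size than the SD within groups. The same count was not made over all tested genes, so it cannot be read as particular to these genes. Of 50 tested initiation factor genes, 19 had their highest CPM of the 6 libraries in shSamd14 replicate 1 and 12 in control replicate 2, and 17 had their lowest in shSamd14 replicate 3 and 19 in control replicate 1. The median SD within groups was 0.08 on the log2 scale, against 0.10 over all tested genes. The summed TPM of red cell and megakaryocyte markers differed between the groups as Eif5b, Eif5a2 and Ddit4 did, and its part in the differences of these genes was not tested. The same holds for the unequal levels of Xist and the Y-linked genes. In RNA of sorted bulk cells, more or fewer cells of a type and more or less RNA per cell cannot be told apart.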

How the data were processed

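Per the file headers, the authors deposited 1 gene table for each of 6 libraries with expected counts (reads shared in proportion between genes they fit), TPM, FPKM and gene lengths. Bowtie 1.0.1, RSEM 1.2.15, CASAVA 1.8.2 and mm10 are named in the submitters' processing notes; no source used here gives their roles, the annotation release, read length or strand. FPKM, as deposited by the authors, was read only as a check (within 1.23% of TPM after rescaling). Of 24376 IDs, 23580 had a symbol in the GENCODE M21 annotation of GRCm38 (the same assembly as mm10) and 796 had none; 6432 were at 0 in all libraries.

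The groups were compared on rounded expected counts by edgeR 4.0.16 (R 4.3.3): filterByExpr (minimum count 10, minimum total 15), TMM factors (0.986 to 1.02), robust dispersions (biological coefficient of variation 7.52%), a two-sided quasi-likelihood test and Benjamini-Hochberg adjustment over 12670 genes. The SE is the size of the log2 fold change over the square root of F. CPM are TMM-scaled; 3 counts are 0.111 to 0.145 CPM, and the SDs cover 3 libraries. The test was tested on simulated data. It was required to find only changes larger than any measured for the initiation factor genes, so this is no check for changes of their size. Libraries of a group differed by a chi-square of 5.76 to 12.3 per gene, so none was a repeat of another. Per-library values are given for members with an adjusted or unadjusted p under 0.05, for the highest and the smallest-p member of each complex, and for Samd14; of the other genes the rule names changed ones or the smallest p of each subgroup. Eif3l, Eif3j1, Eif2s1, Eif2s3y, Atf4 and genes given by mean and SD alone were chosen after their values were seen. 3′ UTRs are the longest annotated per gene, at least 50 bases. Alternatives were DESeq2 1.42.0, limma 3.58.1 on log2(TPM + 1) and log2(TPM + 0.1), limma-voom, other size factors and filters, effective lengths, a replicate block, an adjusted p under 0.01 and left-out libraries. The members and lists were chosen with earlier results of these data known.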

Additional observations from a re-analysis of the deposited data

How the results depend on the processing

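Eif5b had a positive log2 fold change in all alternatives run and passed the threshold in all that kept the 6 libraries (adjusted p 0.000947 to 0.0457), except at an adjusted p under 0.01. The number of changed genes was 327 as reported, 170 by limma on log2(TPM + 0.1), 168 by limma on log2(TPM + 1), 682 with the replicate block, 104 at an adjusted p under 0.01, 42 without both libraries numbered 1 (chosen after seeing the data), and 128 to 283 without 1 library, lowest without shSamd14 replicate 2. The count of changed initiation factor genes, 1 as reported, was 2 with the replicate block (Eif5b and Eif5a2, whose adjusted p was then 0.0375), 0 without both libraries numbered 1 (edgeR, 2 with an unadjusted p under 0.05), 0 at an adjusted p under 0.01 (3 with an unadjusted p under 0.05) and 0 to 1 without 1 library. For the other translation control genes, 1 as reported, it was 0 with upper quartile factors (Ddit4 at an adjusted p of 0.0556; 6 genes with an unadjusted p under 0.05), 0 by limma on either TPM scale (3), 0 without both libraries numbered 1 (5), 0 at an adjusted p under 0.01 (5) and 0 to 1 without 1 library; DESeq2 and limma-voom each gave 1. The replicate numbers were not taken as pairs, since the labels do not say that they pair the libraries. Same-numbered deviations correlated at -0.072, 0.153 and 0.272, and unlike-numbered ones at -0.289 to 0.177. Not every library correlated best with its own number. Replicate 3 was the highest of its group for Mpo (1799 TPM with shSamd14, 1568 TPM in the control), as replicate 1 was for Xist. These values do not settle whether the numbers pair the libraries. A makeup shared by number was not tested further; with the block Eif2s3y had an unadjusted p of 0.0302 and an adjusted p of 0.213. Signs turned for genes that were not called. Without both libraries numbered 1 the log2 fold changes were -0.069 for Eif5a, -0.058 for Eif3k, -0.013 for Eif1, -0.033 for Eif4h, -0.028 for Eif6, -0.048 for Eif2b1 and -0.027 for Dohh. By limma on log2(TPM + 1) or log2(TPM + 0.1) they were 0.011 for Eif4a1, 0.0099 for Eif4g2, 0.0080 and 0.0081 for Eif4b, and -0.066 and -0.067 for Eif2b1, which was at -0.075 with effective lengths. With a filter of 1 CPM in 3 libraries Eif4a1 was at 0.00095 and Eif4g2 at 0.00019, and with no filter at 0.0022 and 0.0016. Without 1 library the ranges were -0.033 to 0.068 for Eif5a, -0.046 to 0.049 for Eif4a1, -0.034 to 0.026 for Eif4g2, -0.0078 to 0.088 for Eif3k, -0.022 to 0.107 for Eif1, -0.033 to 0.027 for Eif4b, -0.011 to 0.075 for Eif4h, -0.120 to 0.0084 for Eif4e, -0.022 to 0.108 for Eif2b1 and -0.022 to 0.422 for Eif4e3. The causes were not tested. Of the recomputed log2 fold changes of named genes, 523 kept their direction and their side of the threshold. Against these, 36 turned sign, 16 lost the threshold and 1 gained it. The setting of an adjusted p under 0.01 used the fit as reported, so its log2 fold changes could not move. All 104 recomputed ratios of complexes moved by less than the spread between libraries. Leaving out 1 of 3 libraries shifts a group mean by less than its SD in any case, so these ratios could not exceed that spread. The ratios over tested genes alone differed from the reported ones only by Eif4e1b, a gene with almost no counts. Only the ratios of summed CPM could have moved by more. Of the recomputed counts, 30 stayed within 1.5 times the reported count and 24 did not. The median log2 fold change of all genes moved by 0.011 or less under any setting. Eif4e3 and Eif4ebp3 had wide intervals, and changes of the size measured were not detectable in these libraries.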
